A study of Mus musculus with 8 samples.

Results

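Control full-grown oocytes of 2 mouse lines were compared gene by gene. The 4 control libraries, of 8 in the series, were taken by their labels: 2 labelled H2A.Z control and 2 labelled Mll2 WT. Both groups carry the genotype label wild type and the tissue label ovary, and the stage label is full-grown oocyte. Each library held polyadenylated RNA from a pool of about 20 oocytes whose zona pellucida had been dissolved in acid. The RNA was amplified with a SMART-Seq kit for low input, and 200 pg of the cDNA went into a Nextera XT library. The strain, the age of the mice, the promoter of any Cre transgene and any floxed allele carried by the H2A.Z controls are not given in the labels. Nor do the labels say that replicates came from separate animals, so p-values measure the spread between these libraries, which may be technical. The line, the animals and any day of collection or sequencing change together with the control group and cannot be told apart.

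The other 4 libraries are labelled as a double knockout (DKO) of H2A.Z.1 and H2A.Z.2 and as an Mll2 knockout (KO). They were in the same fit as the controls and so shared in its gene filter, scaling factors and estimate of spread. They also served to look at the difference between the lines a second time, in libraries whose levels the control difference does not use. That second comparison also holds the difference between the mutations. In the libraries labelled H2A.Z DKO, H2afz, the gene of H2A.Z.1, stood at 322 and 317 normalised counts per 1000000 (CPM, scaled by edgeR's TMM factors), against 23.9 and 30.0 CPM in the H2A.Z controls. The level was thus higher under the knockout label, but counts per gene cannot show whether the transcript is whole. The label is used below only as a name.

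A full-grown oocyte has finished its growth in the ovarian follicle and holds the store of messenger RNA and protein on which meiotic maturation and the first embryonic divisions run. Transcription falls silent at the end of growth, so its RNA is largely a stored pool, kept by RNA-binding proteins and removed in steps after meiosis resumes. Part of the pool comes from gene families used mainly in oocytes, such as the Obox homeobox genes, the Tcl1 and Nlrp families, the Oog genes and a cluster of Fbxw F-box genes, which encode parts of ubiquitin ligases. H2A.Z replaces ordinary H2A in some nucleosomes, and MLL2, encoded by Kmt2b, methylates lysine 4 of histone H3 (H3K4).

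The library totals were 20309233 and 25186157 counts in the H2A.Z controls and 29002828 and 30087863 counts in Mll2 WT, and 21077 to 21854 genes had a count. Log2 CPM correlated across genes with r = 0.988 and 0.989 within the groups and 0.955 to 0.959 between them. Genes are not independent replicates, and these values only describe the libraries. Both pairs differed by more than counting error, with a chi-square per degree of freedom of 4.64 in the H2A.Z controls and 12.5 in Mll2 WT. Markers of other ovarian cells were low, apart from Serpine2 and, at lower levels, C1qb and Pecam1. The summed level of 26 granulosa and cumulus markers was 392 and 419.9 CPM in the H2A.Z controls and 768 and 607 CPM in Mll2 WT. Marker sums are scaled by library size alone, without the TMM factors used for single genes. Most of the granulosa and cumulus sum was Serpine2, at 309 and 315 CPM against 636 and 499.8 CPM, while the follicle-stimulating hormone receptor gene Fshr was at 0.594 to 1.29 CPM in all 4 libraries. The 18 theca and stroma markers summed to 11.4 to 19.7 CPM, with 8 of them at 0 in all 4 libraries. The 20 blood, immune and endothelial markers summed to 69.8 to 88.2 CPM, also with 8 at 0. Among them C1qb stood at 40.6 and 45.0 CPM in the H2A.Z controls and 32.2 and 33.6 CPM in Mll2 WT. Pecam1 went the other way, at 18.4 and 20.1 against 33.1 and 32.3 CPM. In pooled cells, fewer cells of a type and less RNA per cell cannot be told apart. The 15 oocyte markers that were checked were all present, from Dppa3, ranked 3rd by length-scaled level, to Ddx4, ranked 3984th of 27313 genes.

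The transcripts at the highest level were those of oocyte genes in every library. Levels between genes are given per length, as counts divided by the length of the longest annotated transcript and scaled to 1000000 units per library. These units are not scaled by TMM factors, so they can depart from the fitted differences below, in Zp3 even in sign. The highest was Gm15698 (RefSeq symbol Elobl, an elongin B-like gene), at 20880 and 21790 units in the H2A.Z controls and 15560 and 16220 in Mll2 WT. Next came H1foo, the linker histone of the oocyte, at 11950 and 12330 against 11650 and 11310 units. Its 4 values lie close together in these units, though the fitted log2 difference, H2A.Z control minus Mll2 WT, was 0.31. Dppa3, a maternal factor that protects DNA methylation of the zygote, followed at 14250 and 13930 against 8386 and 9401 units, with both H2A.Z controls above both Mll2 WT libraries.

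The 25 highest genes fall into a few groups of known oocyte genes. Those of the egg coat, the egg surface and secretion were Zp3, which encodes the zona protein ZP3, Gdf9, the growth factor by which the oocyte acts on granulosa cells, and the oocyte-secreted proteins Oosp1, Oosp2 and Oosp3. Zp3 stood at 4862 and 5150 units in the H2A.Z controls and 4706 and 6043 in Mll2 WT, and Gdf9 at 3778 and 3914 and 4529 and 4821. Genes of the subcortical maternal complex, a protein assembly beneath the egg membrane, were Ooep and Zbed3. Parts of ubiquitin ligases were Fbxw24, Fbxw15 and Skp1a, whose product joins F-box proteins to the ligase. The homeobox genes Obox1 and Obox2, the AKT co-activator gene Tcl1, Btg4, which recruits the deadenylase that clears maternal mRNA, the Bcl2 family gene Bcl2l10 and the lactate dehydrogenase gene Ldhb were also among them. The remaining genes were H1foo, Dppa3, Gm15698, Gm813 and E330017A01Rik on chromosome 16, E330034G19Rik, E330021D16Rik, Omt2b and Mphosph6.

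**Figure D1:**
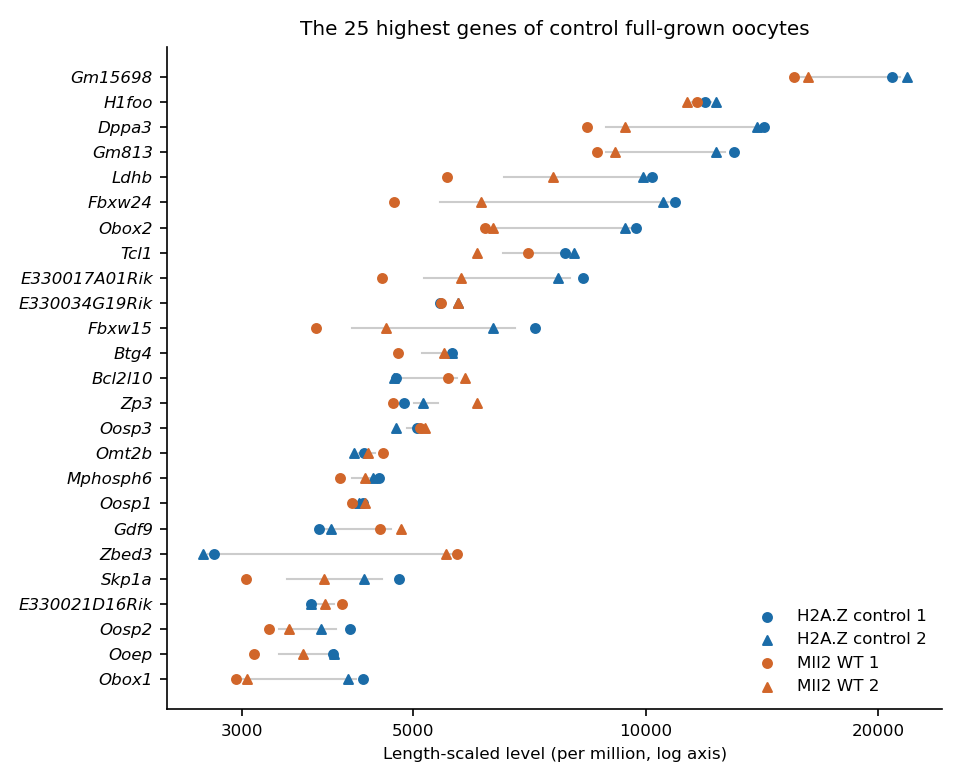
Length-scaled level (length-scaled units, log axis) of the 25 highest genes in each of the 4 control libraries, with a grey line joining the group means. These units are not scaled by TMM factors. Gm15698 is the highest in all 4 libraries, and Zbed3, at 2757 and 2666 against 5694 and 5519, is the gene among them called lower in the H2A.Z controls.

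Genes were ranked once, by their mean over the 4 control libraries, and the same sets were summed in every library. The 10 highest genes held 11.3% and 11.2% of the length-scaled total in the H2A.Z controls and 7.77% and 8.36% in Mll2 WT. The 100 highest held 34.4% and 33.9% against 27.8% and 29.6%, and the 1000 highest 73.4% and 72.9% against 66.5% and 67.9%. As counted per length, these sets therefore held more of the total in the H2A.Z controls at each size, with no overlap between the groups. Over all tested genes the control groups did not overlap in 75.2%. The share held by each library's own highest genes was not calculated. The line difference moved with transcript length, as described below. The shares were not calculated with that trend removed, so its part in them was not tested. In all 4 libraries 11008 genes stood at a length-scaled level of 1 or more, 1465 at 100 or more and 123 at 1000 or more. Other oocyte genes ranked lower: Zp2 was 39th and Bmp15, a partner of Gdf9, 87th, while the transcription factor genes Nobox and Figla ranked 369th and 984th.

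The difference between the control groups was large and spread over the genome. Of 16847 genes tested with edgeR's quasi-likelihood test, 7464 (44.3%) were called at a Benjamini-Hochberg adjusted p under 0.05. Of these, 3200 (19.0%) were higher and 4264 (25.3%) lower in the H2A.Z controls than in Mll2 WT. These shares are the background for the counts below that come from this fit. Counts in another setting or in the mutant libraries are to be read against the all-gene counts of that setting. Without any 1 control library fewer genes were called in each direction. Differences are given below on the log2 scale, H2A.Z control minus Mll2 WT, each fitted value with its standard error. The median over all tested genes was 0.02, and it moved to -0.05 when libraries were scaled by size alone. More than 2-fold, 989 genes (5.87%) were higher and 1928 (11.4%) lower, more than 4-fold, 275 (1.63%) were higher and 192 (1.14%) lower, and more than 8-fold, 109 (0.647%) were higher and 65 (0.386%) lower. The smaller differences lean toward Mll2 WT and the largest toward the H2A.Z controls. Leaving out 1 library moved the number of higher genes by more than 1.5 times without H2A.Z control 1 (1970), H2A.Z control 2 (1992) or Mll2 WT 1 (1840).

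Transcript length and GC content moved with the difference. In 10 equal bins of 14963 genes with a known length, the median log2 difference was 0.38 in the bin of the shortest and -0.51 in that of the longest transcripts. By GC content the medians ran from 0.22 in the lowest bin to -0.46 in the highest. Spearman's rho across genes was -0.370 with length and -0.227 with GC content. Between replicates it was 0.0971 and 0.0565 with length and -0.218 and 0.167 with GC content. Offsets that remove the trend with both in every library were an alternative added after the data were seen. With them 2844 of 14963 genes were higher and 3203 lower, which is the background for counts with offsets below. The split of differences over 2-fold then turned, to 851 higher and 605 lower. The part of length and GC content in single results was not tested, and values with offsets are given beside the results below.

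**Figure D2:**
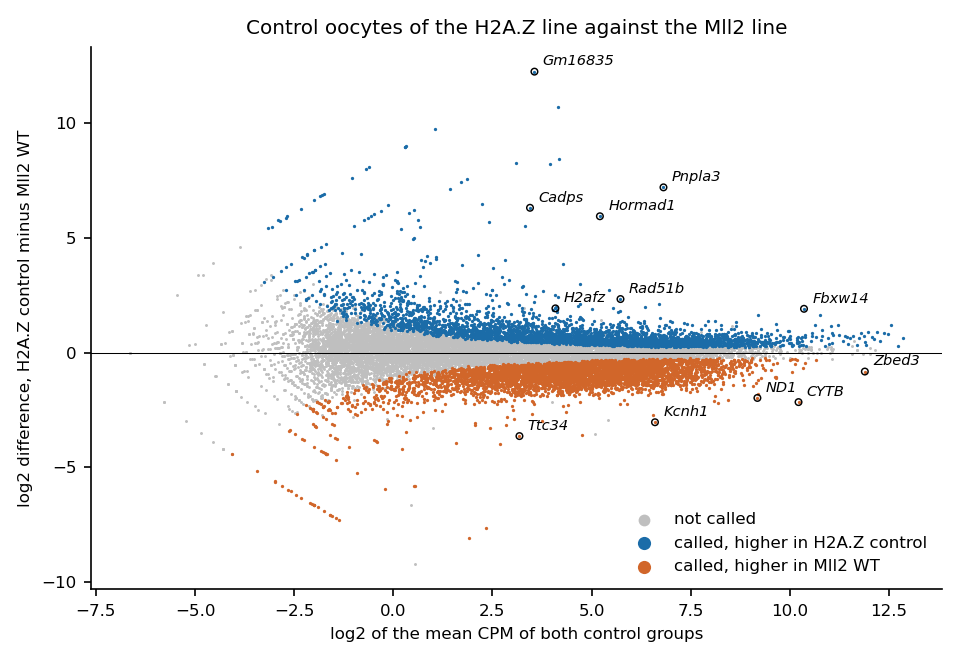
Each point is 1 of 16847 tested genes, with the log2 of its mean CPM over both control groups on the x axis and the log2 difference, H2A.Z control minus Mll2 WT, on the y axis. Called genes lie on both sides over the whole range of levels, and Pnpla3, Hormad1 and Cadps stand far above genes of like level.

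**Figure D3:**
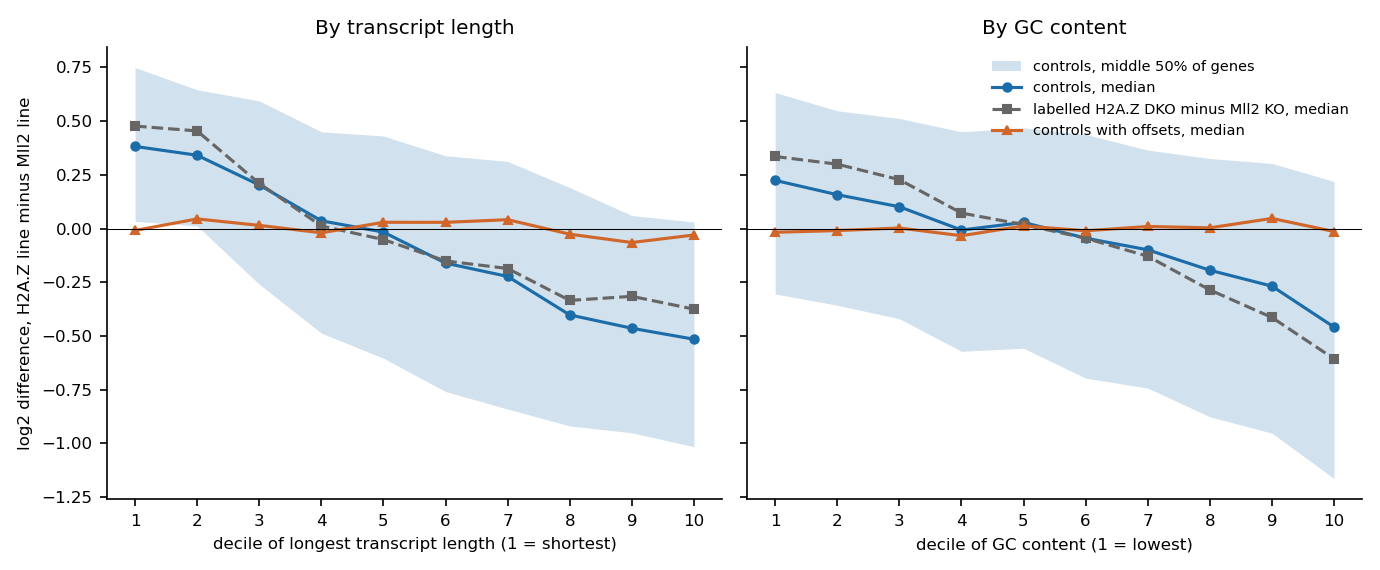
Median log2 difference between the lines (y axis) in 10 bins of the genes ordered by transcript length (left) and by GC content (right). The control median falls from 0.38 to -0.51 with length, the medians of the mutant libraries fall too, and the medians with offsets stay between -0.06 and 0.05.

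Most genes called between the controls were called in the same direction between the mutant libraries. Between the libraries labelled H2A.Z DKO and Mll2 KO, 9793 genes (58.1%) were called, 4956 higher (29.4%) and 4837 lower (28.7%). Scaled by library size alone, the split was 3364 higher and 6588 lower. Of the 3200 genes higher in the H2A.Z controls, 2323 were called in the same direction there and 136 in the opposite one. Of the 4264 lower genes, 3217 were called in the same direction and 134 in the opposite one. Among the 9383 genes not called in the controls, 2803 were called in the direction of their control difference and 1178 against it. Of the genes over 8-fold, 76 of 109 higher and 51 of 65 lower were called the same way. The mutant medians also fell from the lowest to the highest bin, from 0.48 to -0.38 by length and from 0.34 to -0.61 by GC content. No offsets were fitted to the mutant comparison, so the part of this shared trend in the agreement was not tested.

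A few genes were close to absent from the Mll2 line and clearly present in the H2A.Z line. Pnpla3 encodes a lipase and acyltransferase of lipid droplets and lies at chr15:84167776-84189521 (mm10). It stood at 227 and 219.7 CPM in the H2A.Z controls and 1.45 and 1.55 CPM in Mll2 WT (log2 7.21 ± 0.22, adjusted p = 1.28e-11). The mutant libraries showed the same pattern, with 203 and 180.1 CPM in those labelled H2A.Z DKO and 2.23 and 1.01 CPM in Mll2 KO. Every library of the H2A.Z line thus stood far above every library of the Mll2 line. Groups that do not overlap were common, since the control groups did not overlap in 75.2% of the tested genes and in 7458 of the 7464 called.

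Hormad1 encodes a protein of the meiotic chromosome axis and lies at chr3:95559677-95587863. It stood at 80.3 and 65.4 CPM in the H2A.Z controls and 0.992 and 1.35 CPM in Mll2 WT (log2 5.95 ± 0.21, adjusted p = 3.06e-11), and at 57.3 and 58.5 CPM under the DKO label and 0.371 and 0.168 CPM in Mll2 KO. Cadps encodes a factor that primes secretory vesicles for calcium-triggered release and lies at chr14:12372560-12823339. It stood at 24.9 and 18.2 CPM against 0.364 and 0.165 CPM (log2 6.32 ± 0.36, adjusted p = 1.43e-08), with 23.2 and 17.8 CPM under the DKO label and 0.169 and 0.470 CPM in Mll2 KO. For Pnpla3, Hormad1 and Cadps all 4 libraries of the H2A.Z line lay above all 4 of the Mll2 line, and Hormad1 was lower still in Mll2 KO than in Mll2 WT.

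The promoters of these genes are shown because they are the named genes, predicted loci aside, whose differences between the lines were the largest where the higher group averaged at least 10 CPM. Each runs from 250 bases before the start listed for the promoter to 50 after it on GRCm38.p6 (mm10). Bases are given 5′ to 3′ on the gene's strand, and capitals mark CG dinucleotides. For Pnpla3 and Cadps that start lies inside the gene span given above, and the Cadps stretch lies wholly inside that span. They are the reference sequence, and the lines' own sequence was not read.
Pnpla3, chr15:84167566-84167865, plus strand: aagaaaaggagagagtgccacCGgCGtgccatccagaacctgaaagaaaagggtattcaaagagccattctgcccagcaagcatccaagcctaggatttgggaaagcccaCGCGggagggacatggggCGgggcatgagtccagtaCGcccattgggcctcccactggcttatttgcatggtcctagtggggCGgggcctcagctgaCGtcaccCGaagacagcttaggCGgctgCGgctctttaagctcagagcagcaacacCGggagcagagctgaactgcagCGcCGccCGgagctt
Hormad1, chr3:95559427-95559726, plus strand: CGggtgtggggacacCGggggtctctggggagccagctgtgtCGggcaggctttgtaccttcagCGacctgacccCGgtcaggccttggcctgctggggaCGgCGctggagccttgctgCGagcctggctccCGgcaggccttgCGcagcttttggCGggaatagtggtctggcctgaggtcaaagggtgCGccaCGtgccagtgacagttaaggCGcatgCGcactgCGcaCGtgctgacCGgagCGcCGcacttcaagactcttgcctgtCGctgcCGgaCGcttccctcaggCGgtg
Cadps, chr14:12823030-12823329, minus strand: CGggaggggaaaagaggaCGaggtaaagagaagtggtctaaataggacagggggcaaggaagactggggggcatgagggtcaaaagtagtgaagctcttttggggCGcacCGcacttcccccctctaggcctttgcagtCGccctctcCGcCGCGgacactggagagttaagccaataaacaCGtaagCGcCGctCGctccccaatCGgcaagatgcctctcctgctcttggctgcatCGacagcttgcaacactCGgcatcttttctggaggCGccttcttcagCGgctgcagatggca
The motif CG, which reads the same on both strands, occurs 15 times in the Pnpla3 promoter, 24 times in that of Hormad1 and 17 times in that of Cadps. Over 32851 RefSeq promoters of that length the median is 7, with quartiles of 3 and 20. RefSeq lists 2 promoters for Hormad1, and 1 is shown.

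In 3 predicted loci the Mll2 WT libraries held at most 3 counts together. Gm38610 had 723 and 855 counts in the H2A.Z controls and 0 and 1 in Mll2 WT. Gm16835 had 463 and 582 against 0 and 0, and LOC102640520 had 347 and 403 against 0 and 3. The fitted differences of these loci depend on the prior count and are not given as folds. In the mutant libraries they stood at 19.5 to 42.8 CPM under the DKO label and at 0 to 0.101 CPM in Mll2 KO, so the loci again followed the line.

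The other genes with large higher differences at 10 CPM or more differed by log2 3.19 (Gin1) or less. Rad51b, which acts in homologous recombination, was at 97.3 and 80.0 CPM against 17.4 and 17.5 CPM (log2 2.34 ± 0.14, adjusted p = 2.37e-08). Under the DKO label it was at 121 and 107 CPM and in Mll2 KO at 18.3 and 14.9 CPM. Mnd1, named from the list of meiotic recombination genes and known to help strand exchange, was at 174 and 165 CPM against 38.2 and 39.5 CPM (log2 2.13 ± 0.11, adjusted p = 4.10e-09). In both genes the control groups lie well apart.

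Ldhc, a lactate dehydrogenase of germ cells, was at 28.4 and 31.7 CPM against 7.01 and 4.12 CPM (log2 2.43 ± 0.21, adjusted p = 7.23e-07). C1d, a cofactor of the nuclear exosome, had a log2 difference of 2.69, Id3, an inhibitor of helix-loop-helix factors, one of 2.56, and Sdcbp2, a PDZ adaptor gene, one of 2.49. Gin1 (3.19), Slamf9 (2.52) and the ataxin gene Atxn10 (2.88) followed the same direction. For these 7 genes the mutant libraries gave log2 differences of 1.46 to 3.10. Fhit, which hydrolyses dinucleoside polyphosphates, lies within 5 Mb of Cadps and was at 31.2 and 25.7 CPM against 4.53 and 5.47 CPM (log2 2.51 ± 0.21, adjusted p = 5.34e-07).

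Malat1, a long nuclear RNA, was at 50.1 and 99.7 CPM against 12.9 and 9.46 CPM (log2 2.75 ± 0.37, adjusted p = 5.79e-04). Its H2A.Z controls lie far apart, though both are above Mll2 WT. With the replicate number as a block among the 4 controls, its adjusted p was 0.120. The claudin gene Cldn34d was at 20.6 and 18.1 CPM against 5.12 and 3.27 CPM in the controls (log2 2.20 ± 0.32, adjusted p = 2.95e-04, with offsets 1.45), while the mutant libraries stood at 30.5 and 50.9 CPM and 52.4 and 31.8 CPM and overlap. Alyref2, an mRNA export factor gene, was at 51.6 and 41.2 CPM against 6.05 and 5.64 CPM (log2 2.99 ± 0.22, adjusted p = 2.53e-07) and differed by 1.46 in the mutant libraries. For these 3 genes the line difference itself differed between control and mutant libraries, with an adjusted p of 0.0306 for Malat1, 0.00502 for Cldn34d and 0.00263 for Alyref2 for the interaction term of the edgeR fit.

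**Figure D4:**
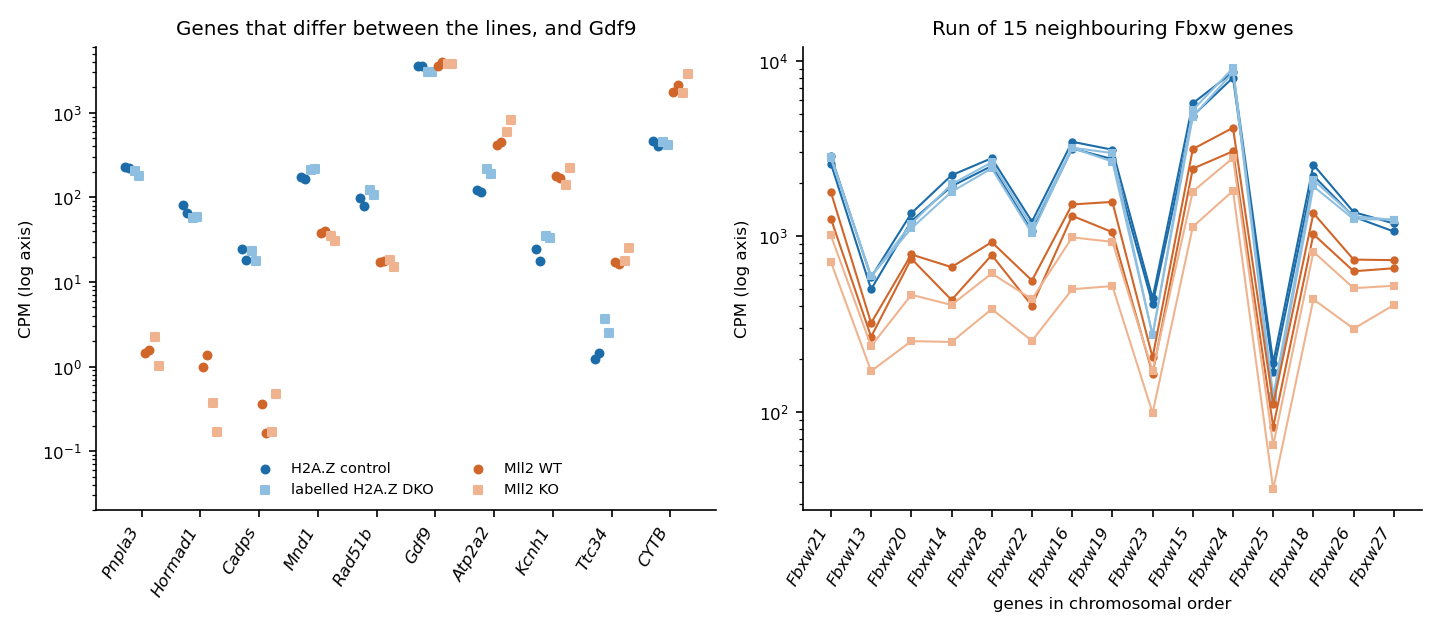
Left, CPM (log axis) of genes with a large line difference and of Gdf9, which did not pass the test, in all 8 libraries; right, CPM of 15 Fbxw genes in chromosomal order. Dark points and lines are controls and light ones are mutant libraries, and in each Fbxw gene the H2A.Z controls lie above both Mll2 WT libraries; over all tested genes the control groups did not overlap in 75.2%.

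The largest lower differences in the H2A.Z controls, among genes at 10 CPM or more, were smaller than the largest higher ones. Ttc34, a tetratricopeptide repeat gene, was at 1.24 and 1.44 CPM against 17.4 and 16.2 CPM in Mll2 WT (log2 -3.64 ± 0.26, adjusted p = 2.17e-07). Kcnh1, which encodes a voltage-gated potassium channel, was at 24.7 and 17.7 CPM against 177 and 169 CPM (log2 -3.03 ± 0.22, adjusted p = 1.16e-06). Both differences returned in the mutant libraries, at -2.78 and -2.42.

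Other named genes followed the same direction. Llgl2, a polarity gene, had a log2 difference of -2.58, Ephb4, an ephrin receptor gene, one of -2.30, and Prex1, an exchange factor for Rac, one of -2.23. The palmitoyltransferase gene Zdhhc8 (-2.31), the adipokine gene Fam132a (-2.28) and the dynein assembly gene Dnaaf5 (-2.15) were also lower. With offsets Ephb4 stood at -1.45, Prex1 at -1.27, Zdhhc8 at -1.34 and Dnaaf5 at -1.42, all still called. Sumo2, the gene of a ubiquitin-like modifier, was at 1.81 and 2.07 CPM against 13.8 and 15.4 CPM (log2 -2.90 ± 0.26, adjusted p = 7.23e-07), and Sap18b at 19.9 and 21.5 CPM against 97.7 and 97.2 CPM (log2 -2.23 ± 0.15, adjusted p = 1.00e-07). Both are uncertain, since Sumo2 and Sap18 have near-identical copies that can share reads. Snora47, a small nucleolar RNA at chr13:95330611-95330736, lies inside the span of Zbed3 at chr13:95323605-95337842, so the 2 can share reads. Snora47 differed by -3.13 and Zbed3 by -0.82.

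Protein genes of the mitochondrial genome were lower in the H2A.Z controls where they were well counted. They were looked at as a group after 7 of them had come out among the named genes. The 13 such genes held 0.131% and 0.122% of all counts in the H2A.Z controls and 0.532% and 0.581% in Mll2 WT. CYTB, the cytochrome b gene of respiratory complex III, was at 465 and 410.1 CPM against 1754 and 2141 CPM (log2 -2.15 ± 0.21, adjusted p = 7.78e-06). The complex I genes ND1, ND2, ND4, ND5 and ND6 had log2 differences of -1.97, -2.08, -2.20, -2.11 and -2.73, and the complex IV gene COX1 one of -1.80. All 7 were called, and in each of them both H2A.Z controls lay below both Mll2 WT libraries, beside 75.2% of all tested genes in which the control groups did not overlap.

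In the mutant libraries the same 7 genes were lower too, with log2 differences of -1.27 to -2.59. The other 6 mitochondrial protein genes were barely counted. COX2, COX3, ATP6, ATP8 and ND4L had 0 counts in both H2A.Z controls and 1 to 15 per library in Mll2 WT, and ND3 had 23 and 16 counts against 2 and 6. At these few counts COX2, COX3 and ATP6 were called lower and ND3 higher, and ATP8 and ND4L were not tested. Lars2, the nuclear gene of the mitochondrial leucyl-tRNA synthetase, was also lower, at 19.2 and 18.1 CPM against 109.5 and 63.5 CPM (log2 -2.22 ± 0.21, adjusted p = 5.70e-06). The share of counts on all 13 genes did not overlap between the control groups.

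Among genes at 200 CPM or more, the largest higher differences apart from that of Pnpla3 were those of Fbxw and ribosomal protein genes. Fbxw14 was at 2225 and 1925 CPM against 434 and 667 CPM (log2 1.92 ± 0.25, adjusted p = 2.09e-04), and Fbxw28 at 2782 and 2515 CPM against 781 and 925 CPM (log2 1.63 ± 0.17, adjusted p = 6.10e-06). The ribosomal protein gene Rps13 was at 410.0 and 393 CPM against 147 and 164 CPM (log2 1.37 ± 0.10, adjusted p = 2.69e-07), and Rps29, Rpl5 and Rpl19 had log2 differences of 1.36, 1.33 and 1.23. Ribosomal protein genes have many processed copies that can share reads. Cenpk, a kinetochore gene, was also among the 10 named, at 248 and 213 CPM against 88.1 and 99.2 CPM, a 2.46-fold difference that was log2 0.68 with offsets.

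The largest lower differences outside the mitochondrial genome were those of Atp2a2, Dclk2, Rhpn2 and Syne2. Atp2a2 encodes the calcium pump of the endoplasmic reticulum and was at 122 and 115 CPM against 419.8 and 448 CPM (log2 -1.87 ± 0.14, adjusted p = 2.17e-07). Dclk2, a doublecortin-like kinase gene, Rhpn2, a scaffold protein gene, and Syne2, which encodes the nuclear envelope protein nesprin 2, had log2 differences of -1.73, -1.66 and -1.64, and with offsets Dclk2 and Syne2 stood at -0.995 and -1.07. All 4 had the same direction in the mutant libraries, from -1.31 (Rhpn2) to -1.81 (Atp2a2).

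Several of the 25 highest genes differed between the lines. Fbxw24 was higher in the H2A.Z controls, at 8620 and 8009 CPM against 3048 and 4149 CPM (log2 1.21 ± 0.18, adjusted p = 1.05e-04, with offsets 0.64), and Fbxw15 by 0.92, or 0.34 with offsets. Zbed3 was lower, at 2848 and 2648 CPM against 4815 and 4895 CPM (log2 -0.82 ± 0.12, adjusted p = 4.60e-05). It was the 1 gene of the 25 called lower, and with offsets its difference was -0.78. Dppa3 (0.89), E330017A01Rik (0.86), Ldhb (0.84), Obox2 (0.84), Gm813 (0.74), Obox1 (0.72) and Gm15698 (0.65) were higher. With offsets Dppa3 stood at 0.21, E330017A01Rik at 0.07, Obox2 at 0.20, Gm813 at -0.08, Obox1 at 0.12 and Gm15698 at 0.05, none of them past the test.

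Other calls among the highest genes were lost when 1 library was left out. H1foo (0.31), Btg4 (0.35) and Mphosph6 (0.33) lost the call without H2A.Z control 1 or 2, either library labelled DKO, or Mll2 WT 1, and H1foo also without Mll2 WT 2 (adjusted p up to 0.182, 0.335 and 0.260). Tcl1 (0.51) lost it without any of the 4 control libraries (up to 0.144). Skp1a (0.63) and Oosp2 (0.47) lost it without H2A.Z control 1 or Mll2 WT 1 (up to 0.0936 and 0.0758), and Ooep (0.46) without Mll2 WT 1 (0.102). Zp3 (0.12), Gdf9 (-0.06), Bcl2l10 (-0.04), Oosp1 (0.24), Oosp3 (0.16), Omt2b (0.16), E330034G19Rik (0.22) and E330021D16Rik (0.13) did not pass the test.

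With offsets for length and GC content, H1foo (0.11), Tcl1 (0.27), Skp1a (0.18) and Ooep (0.20) were not called. Oosp3 (-0.77), Oosp1 (-0.55), Omt2b (-0.38), Oosp2 (-0.33), Btg4 (-0.32) and E330034G19Rik (-0.25) were then called lower, and Mphosph6 and E330021D16Rik stood at -0.14 and -0.22 without passing the test. All 25 transcripts are short, at 677 to 2138 bases. The higher calls for Fbxw24, Fbxw15 and Ldhb and the lower call for Zbed3 held with offsets and without any 1 library.

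Neighbouring genes differed in the same direction at a few places. Over all tested genes 19.0% were higher and 25.3% lower, and how many such runs arise without regard to position was not tested. The longest run of consecutive called genes of 1 direction was 15 Fbxw genes at chr9:109139454-109790660, all higher in the H2A.Z controls by log2 0.70 (Fbxw27) to 1.92 (Fbxw14), with a median of 1.00. These genes encode F-box proteins with WD repeats, and all 15 were called in the same direction in the mutant libraries. In Fbxw16, for example, the H2A.Z controls stood at 3453 and 3159 CPM and Mll2 WT at 1307 and 1517 CPM (log2 1.23 ± 0.25, adjusted p = 0.00346, with offsets 0.77), and the mutant libraries at 3180 and 3193 and 985 and 499 CPM. With offsets 11 of the 15 kept the call, with a median of 0.53, and Fbxw18, Fbxw20, Fbxw25 and Fbxw27 lost it. Fbxw20 lost it without H2A.Z control 1, Mll2 WT 1 or Mll2 WT 2, Fbxw25 without H2A.Z control 1 or Mll2 WT 1, and Fbxw18 without Mll2 WT 1. Without a filter on low counts the calls for Fbxw16, Fbxw18 and Fbxw19 were lost. The paralogs are similar enough to share reads, so single members are uncertain.

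The Tcl1 cluster at chr12:105120261-105222737 gave a run of 7 higher genes, from log2 0.51 to 0.93, with Tcl1b1 at 1294 and 1286 CPM against 669 and 688 CPM (log2 0.93 ± 0.16, adjusted p = 2.16e-04, with offsets 0.44). With offsets 4 of the 6 members with a known length kept the call, and Tcl1 and Tcl1b3 lost it. A run of 10 higher genes at chr10:81649069-82379643 held zinc finger and predicted genes, from 0.69 (Zfp938) to 2.07 (Gm10778). Among them Zfp873 was at 235 and 215 CPM against 122 and 132 CPM (log2 0.82 ± 0.14, adjusted p = 2.64e-04, with offsets 0.45). Zfp938 and Gm32687 lost the call with offsets. Without H2A.Z control 1 or without Mll2 WT 1 the calls of 6 of the 10 were lost (Gm10778, Gm3055, Gm32687, Zfp433, Zfp781 and Zfp938), without H2A.Z control 2 those of 3 and without Mll2 WT 2 those of 4. Zfp873 was among the 4 that kept it in each case.

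On chromosome 8 there were 2 runs of 7 lower genes, beside 25.3% of all tested genes called lower. Whether runs of that length exceed those that arise without regard to position was not tested. At chr8:110810491-111055569 the run held Sf3b3, a splicing factor gene (-0.91, with offsets -0.51), and 5 of its genes were called the same way in the mutant libraries. With offsets 2 of the 7, Sf3b3 and Ddx19a, kept the call, and the median moved from -0.79 to -0.33. Without Mll2 WT 1 the calls of Cog4, Ddx19b, Fuk and St3gal2 were lost, and without H2A.Z control 1 those of Cog4, Fuk and St3gal2. At chr8:123242356-123467076 the run held Tubb3, a tubulin gene (-1.39), with 6 called the same way. With offsets 4 of the 7 kept the call, with a median of -0.41 against -1.09, and Fanca, Spire2 and Tcf25 lost it. Fanca or Spire2 also lost it without any 1 of the control libraries.

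Large differences were not spread evenly over the chromosomes. The share of tested genes called at more than 4-fold was 2.77% over all chromosomes and ran from 0.748% on chromosome 19 to 4.77% on chromosome 3. Within 5 Mb on either side of Cadps, 5 of 33 neighbours (15.2%) were past 4-fold, and 10 of 140 (7.14%) around Pnpla3 and 6 of 108 (5.56%) around Hormad1. Around the targeted genes the numbers were 0 of 46 for H2afz, 1 of 82 for H2afv and 5 of 164 for Kmt2b.

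The genes targeted in the mutants also differed between the control groups. H2afz, at chr3:137864487-137866922, was at 23.9 and 30.0 CPM in the H2A.Z controls and 7.04 and 7.09 CPM in Mll2 WT (log2 1.93 ± 0.15, adjusted p = 2.69e-07). H2afv, the gene of H2A.Z.2 at chr11:6427226-6444511, was at 108 and 107 CPM against 86.8 and 88.2 CPM (log2 0.30 ± 0.10, adjusted p = 0.0250). Its call was lost without any of the 4 control libraries or either library labelled DKO (adjusted p 0.0505 to 0.145), and with offsets the log2 difference was -0.10. Only the difference in H2afz thus held under these settings.

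Kmt2b, at chr7:30568855-30589056, was at 13.7 and 15.4 CPM in the H2A.Z controls and 41.9 and 42.4 CPM in Mll2 WT (log2 -1.53 ± 0.14, adjusted p = 1.10e-06). With offsets the difference was -0.45, still called. Kmt2d, which encodes another H3K4 methyltransferase and has also been called Mll2, was at 36.4 and 39.5 CPM against 87.6 and 80.0 CPM (log2 -1.14 ± 0.12, adjusted p = 3.02e-06). With offsets it stood at -0.12 and was not called. The 2 genes were thus lower in both H2A.Z controls, and that difference was smaller with offsets.

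Genes of the egg coat and fertilisation were called about as often as the background of 44.3%. Of 17 tested members, 2 were higher and 6 lower in the H2A.Z controls, with a median log2 difference of 0.00 (-0.33 with offsets). Zp2 was at 3925 and 3541 CPM against 1886 and 3290 CPM (log2 0.53 ± 0.25, adjusted p = 0.121), and without Mll2 WT 2, the higher of its pair, it passed the test at 0.97 (adjusted p = 0.00109). Zp1 was at 608 and 582 CPM against 724 and 777 CPM (log2 -0.33 ± 0.12, adjusted p = 0.0377), and its call was lost without any of the 4 control libraries or either library labelled DKO (adjusted p 0.0608 to 0.195) and with offsets (-0.23).

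Other lower members act at fertilisation and egg activation. Itpr1, the receptor that releases calcium at fertilisation, was at 34.2 and 29.0 CPM against 69.8 and 73.4 CPM (log2 -1.18 ± 0.12, adjusted p = 2.67e-06, with offsets -0.57). Wee2, an oocyte kinase that holds back CDK1 (-0.51), and Astl, the cortical granule protease that cleaves ZP2 (-0.61), were lower too. With offsets 0 members were higher and 8 lower.

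Of 20 tested genes of oocyte-secreted factors and their receptors, 2 were higher and 8 lower, with a median of -0.26 that turned to 0.04 with offsets. Bmp6, a bone morphogenetic protein gene, was at 33.5 and 37.4 CPM against 107 and 99.7 CPM (log2 -1.55 ± 0.15, adjusted p = 1.18e-06, with offsets -0.83). Gja4, the gap junction gene linking oocyte and granulosa cells, had a difference of -0.53, and Kit, the receptor for granulosa-derived Kit ligand, one of -0.69. Bmp15 was at 2086 and 1838 CPM against 2131 and 2582 CPM (log2 -0.26 ± 0.12, adjusted p = 0.0775), and passed the test without Mll2 WT 1 or either Mll2 KO library (adjusted p 0.00829 to 0.0406). With offsets 2 members were higher and 3 lower, Gja4 stood at -0.33, and Kit was not called (-0.26). Without H2A.Z control 2 or Mll2 WT 2 the lower count was 5. The summed granulosa and cumulus markers were also lower in both H2A.Z controls, and most of that sum was Serpine2. Of the 15 tested markers, 1 was higher and 1, Serpine2, was lower, with a median of 0.09. The part of these markers in the differences of this list was not tested.

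Of 22 tested oocyte transcription factor genes, 7 were higher and 9 lower, and with offsets 2 and 4. Figla, which switches on the zona genes, was at 91.9 and 90.0 CPM against 50.1 and 51.1 CPM (log2 0.84 ± 0.12, adjusted p = 3.21e-05, with offsets 0.49), and Tbpl2, the oocyte TATA-binding protein, was higher by 0.97, a call lost with offsets (0.34). Lhx8 (-0.71), a homeobox gene of follicle formation, and Foxo3 (-1.25), which restrains follicle activation, were lower, and with offsets Foxo3 stood at -0.50. Nobox, a homeobox gene of early follicles, did not pass (0.19). In the Obox family 5 of 6 were higher, with a median of 0.74, and with offsets 0 were called and the median was 0.12.

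Of 35 tested genes of the subcortical maternal complex and other maternal-effect genes, 14 were higher and 11 lower, with a median of 0.24 that turned to -0.04 with offsets. Khdc3, a member of the complex, was at 967 and 920.4 CPM against 475 and 584 CPM (log2 0.83 ± 0.13, adjusted p = 6.50e-05), while its partner Tle6 (-0.51) and Zar1, which binds and stores maternal mRNA (-0.77), were lower. Members of the complex thus stood on both sides. With offsets 8 were higher and 11 lower, and the higher count fell to 6 without H2A.Z control 1, to 5 without Mll2 WT 1 and to 9 without H2A.Z control 2, where 7 were lower.

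Genes that store, translate and clear maternal mRNA were mostly lower in the H2A.Z controls. Of 43 tested members, 26 were lower, beside a background of 25.3%, and 8 were higher, with a median of -0.57, and with offsets 28 were lower and 7 higher. Igf2bp2, an RNA-binding protein gene, was at 149 and 140.1 CPM against 321 and 324 CPM (log2 -1.16 ± 0.11, adjusted p = 1.04e-06, with offsets -0.69). Lsm14a, a component of RNP granules, had a difference of -1.26, and Cnot6l and Pan2, which encode deadenylases, had differences of -1.08 and -1.28, the second at -0.74 with offsets. Ddx4, the germ-cell helicase gene, was higher, at 57.1 and 65.8 CPM against 29.6 and 27.5 CPM (log2 1.11 ± 0.15, adjusted p = 2.06e-05).

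Genes of meiotic resumption gave a like count, with 19 of 38 lower, 7 higher and a median of -0.47. Cdc25a, a phosphatase gene that acts on CDK1, was at 32.6 and 35.6 CPM against 87.9 and 84.4 CPM (log2 -1.34 ± 0.14, adjusted p = 2.82e-06), and the centrosomal kinase gene Nek2 and the polo kinase gene Plk1 had differences of -1.59 and -0.95. With offsets 20 were lower and 6 higher. Of 34 genes of the anaphase-promoting complex and the spindle checkpoint, 12 were higher and 11 lower, and Bub1b, a checkpoint kinase gene, was at 545 and 503 CPM against 1084 and 1086 CPM (log2 -1.05 ± 0.10, adjusted p = 1.26e-06). The cohesin, synapsis and recombination genes, which include Hormad1 and Mnd1, had 9 of 33 higher and 7 lower, with 5 higher without H2A.Z control 1 and 4 without Mll2 WT 1.

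Most genes of H3K4 methylation stood lower in the H2A.Z controls. Of 28 tested genes that write or remove H3K4 methylation, 18 were lower and 3 higher, with a median of -0.95, and with offsets 15 were lower and 4 higher, with a median of -0.45. Ncoa6, a subunit of the MLL3 and MLL4 complexes, was at 35.0 and 36.3 CPM against 119 and 113 CPM (log2 -1.70 ± 0.12, adjusted p = 2.17e-07, with offsets -1.12), and Kmt2c, the gene of MLL3, at 119.5 and 112 CPM against 298 and 298 CPM (log2 -1.37 ± 0.11, adjusted p = 4.99e-07, with offsets -0.84). Kdm1a, which removes H3K4 methylation (-1.26), and Kdm6a, an H3K27 demethylase found in those complexes (-1.27), were lower. Smyd3, another methyltransferase gene, was higher by 0.71, and by 1.17 with offsets. Lower members thus included writers and erasers.

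The H2A.Z genes and the complexes that place or remove H2A.Z had 12 of 26 lower and 7 higher. Ep400 and Srcap, the ATPases that load H2A.Z, had differences of -1.41 and -1.57, and Ino80, a remodeller ATPase gene, one of -1.28. With offsets these 3 stood at -0.64, -0.72 and -0.76. The higher count was 3 or 4 without any 1 of the control libraries. Of 33 genes of DNA methylation, H3K9 methylation and KRAB repression, 15 were lower and 1 higher, and with offsets 10 and 1. Tet3, the oocyte dioxygenase that oxidises 5-methylcytosine, was at 155 and 157 CPM against 480.0 and 445 CPM (log2 -1.57 ± 0.15, adjusted p = 1.18e-06, with offsets -0.75). Trim28, Setdb1 and Uhrf1, which act in heterochromatin and maintenance of methylation, had differences of -1.38, -1.31 and -1.17, and with offsets of -0.65, -0.85 and -0.67. Of 34 Polycomb genes, 17 were lower and 3 higher, and with offsets 15 and 5, among them Phf1 (-1.96) and Phc2 (-1.72, with offsets -0.82). The histone gene H3f3a, which encodes H3.3, was higher by 0.82.

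Many genes of translation, respiration and protein turnover were higher in the H2A.Z controls, beside a background of 19.0%. Of 82 cytosolic ribosomal protein genes, 48 were higher and 5 lower, with a median of 0.46 (0.24 with offsets). Rps6 was at 104 and 103 CPM against 40.3 and 42.2 CPM (log2 1.32 ± 0.11, adjusted p = 6.84e-07). Of 77 mitochondrial ribosomal protein genes, 52 were higher and 4 lower, among them Mrpl15 (1.09) and Mrpl9 (-0.81). Without any 1 of the control libraries 30 to 33 were higher. Of 84 nuclear genes of oxidative phosphorylation, 55 were higher and 5 lower, with a median of 0.38 (0.09 with offsets), and Atp5h, an ATP synthase subunit gene, was at 558 and 546 CPM against 226 and 261 CPM (log2 1.18 ± 0.11, adjusted p = 8.27e-07, with offsets 0.57). As counted, most of the nuclear genes therefore stood opposite to the 7 well counted mitochondrial ones, and the higher count was smaller without Mll2 WT 1. With offsets 23 nuclear genes were higher and 11 lower, and the mitochondrial genes have no values with offsets.

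Of 45 proteasome genes, 31 were higher and 4 lower. Psma3, a subunit of the core particle, was higher by 0.99, while the activator genes Psme3 and Psme4 were lower (-1.43 and -1.14). Most of these genes are short, with a median transcript length of 1054 bases for cytosolic ribosomal proteins and 1088 for oxidative phosphorylation, against 3571 for the solute carriers. With offsets the counts were 37 higher and 10 lower for cytosolic and 36 and 7 for mitochondrial ribosomal proteins, 23 and 11 for oxidative phosphorylation and 15 and 8 for the proteasome.

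**Figure D5:**
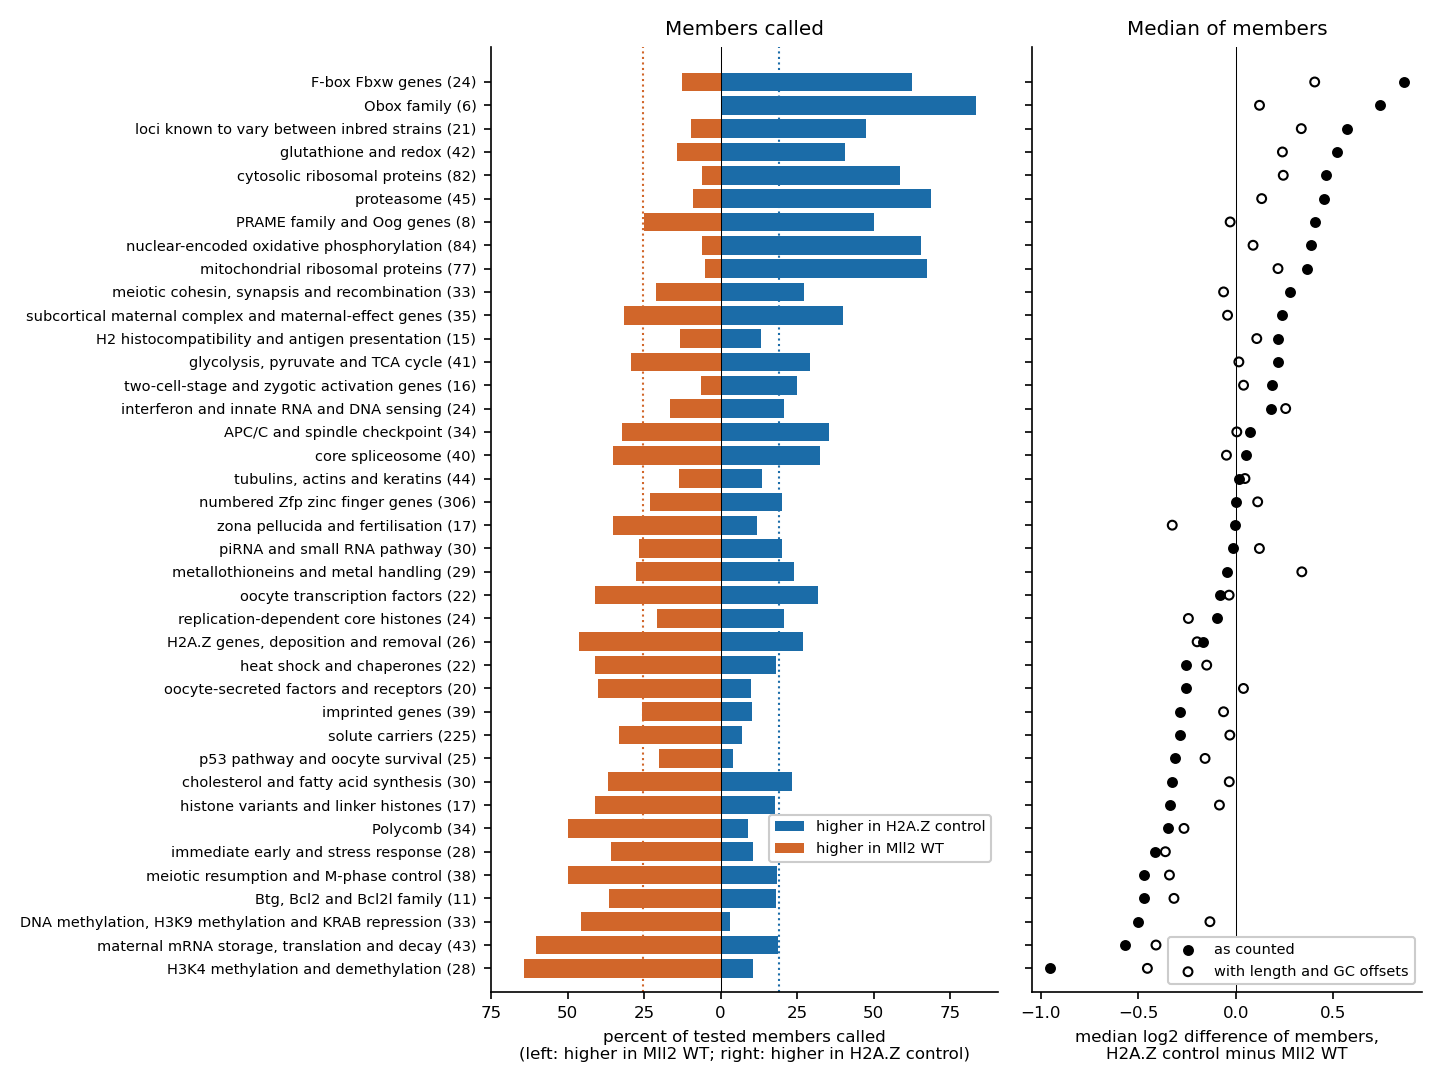
Left, percent of the tested members of each gene list (number in brackets) called higher in Mll2 WT or in H2A.Z control, with dotted lines at 25.3% and 19.0%, the shares over all genes; right, the median log2 difference of members as counted and with length and GC offsets. Among the lists plotted, H3K4 methylation genes have the lowest median as counted and with offsets (-0.95 and -0.45), and Fbxw genes the highest (0.86 and 0.40).

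Metabolic lists were mixed. Of 42 genes of glutathione and redox metabolism, 17 were higher and 6 lower, with a median of 0.52 (0.24 with offsets), and Prdx1, a peroxiredoxin gene, was at 2328 and 2142 CPM against 896 and 1036 CPM (log2 1.21 ± 0.14, adjusted p = 7.39e-06). Gstt2, a glutathione transferase gene, was higher by 1.17, and without Mll2 WT 1 the higher count was 11. Genes of glycolysis, pyruvate and the TCA cycle had 12 of 41 higher and 12 lower, with 6 higher without H2A.Z control 2 or Mll2 WT 1. The TCA cycle enzyme citrate synthase (Cs) was lower (-1.17).

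Of 225 solute carriers, 75 were lower and 16 higher, and with offsets 52 and 26. The higher count was 9 without H2A.Z control 1 and 8 without Mll2 WT 1. The arginine transporter gene Slc7a2 was at 43.2 and 42.6 CPM against 112 and 119 CPM (log2 -1.43 ± 0.11, adjusted p = 4.02e-07). Slc22a22 stood apart, at 10.7 and 7.89 CPM against 0.165 and 0.0330 CPM (log2 6.48 ± 0.39, adjusted p = 2.37e-08), and at 36.5 and 38.7 and 0.708 and 0.437 CPM in the mutant libraries of the H2A.Z and Mll2 line. The chaperone gene Hspa8 was higher by 0.88, and Mdm4, an inhibitor of p53, at 5612 and 5193 CPM against 3504 and 3590 CPM (log2 0.61 ± 0.12, adjusted p = 5.64e-04, with offsets 0.92).

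A list of loci known to vary between inbred mouse strains was also counted, since the strain is not given. Of 21 tested members, 10 were higher and 2 lower, with a median of 0.57 (0.34 with offsets, and 9 and 1 called). Xlr3a, of an X-linked multicopy family, was at 184 and 162 CPM against 100.4 and 98.4 CPM (log2 0.80 ± 0.11, adjusted p = 2.29e-05), and Ide, the insulin-degrading enzyme gene, was lower (-0.57, with offsets -0.35). Scaled by library size alone 5 were higher, and 4 to 6 without any 1 of the control libraries. The Xlr paralogs share reads, and 6 of the 10 higher members are Xlr genes. Of 24 replication-dependent core histone genes, 5 were higher and 5 lower. Hist1h2al was at 9.10 and 5.30 CPM against 0.0661 and 0 CPM, so both H2A.Z controls held it while Mll2 WT was at or near 0.

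Most called long noncoding RNA genes were higher in the H2A.Z controls as counted, and the split was closer to even among those with offsets. Of 2589 tested, 544 were higher and 76 lower (24.0% called), with a median of 0.39, and they held 2.84% and 2.93% of counts in the H2A.Z controls and 2.54% and 2.46% in Mll2 WT. With offsets, which exist for 1320 of them, 139 were higher and 122 lower, with a median of 0.00. Of 13453 protein-coding genes, 2489 were higher and 4104 lower (49.0% called), with a median of -0.09, and with offsets 2670 and 3032 of 13380, with a median of 0.00.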

How the data were processed

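Sequencing counts per gene symbol were used as deposited in 1 table of 8 libraries. The authors' counts are whole numbers, and the submitters' processing notes name RSEM 1.3.1, STAR 2.7.3, Trim Galore 0.6.4 and build mm10, without their order. Annotation, strand setting, filters and any rounding of estimated counts are not given in those sources. Totals were 20309233 to 30087863 counts in the controls, and precision is limited by 2 libraries a group.

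Genes were tested with edgeR 4.0.16 (R 4.3.3) in 1 fit of all 8 libraries, with 4 group means, filterByExpr, TMM factors and a robust quasi-likelihood F-test. The contrast was H2A.Z control minus Mll2 WT, and p-values were adjusted by the Benjamini-Hochberg method over all 16847 genes. The second contrast, between mutant libraries, shares the estimate of spread but no library. Length-scaled levels used the longest transcript of GENCODE M21, and positions and promoters came from RefSeq GRCm38.p6. The script was tested on simulated data.

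Named genes were the targeted genes, the 25 of highest level, the largest differences at 10 CPM (15 each way) and 200 CPM (10 each way), up to 4 members per list with the smallest p, the longest runs, and loci with at most 3 counts in 1 group. Members of the oocyte gene, H3K4 and H2A.Z lists could be named freely, and the mitochondrial genes were grouped after their values were seen. The members and the 42 lists were chosen with earlier results of these data known. The difference of replicate 1 minus 2 correlated across genes at -0.00894 between the control groups. That value cannot show whether equal replicate numbers shared a litter or day, and the labels name none. Alternatives were RLE factors, library size alone, 2 other filters, DESeq2 1.42.0, controls alone, a replicate block, leaving out each library and, added after the data were seen, spline offsets for length and GC content.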

Additional observations from a re-analysis of the deposited data

Results flagged for a closer look

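For 51 named genes the difference between the lines was compared between control and mutant libraries with an interaction term of the edgeR quasi-likelihood fit, adjusted over all 16847 genes, of which 3291 were called. The term was called for 12 of the 51 genes, and values below are the log2 difference in the controls minus that in the mutant libraries. The mutant contrast also holds the difference between the mutations.

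The targeted genes were among the 12. For Kmt2b the lines differed by -1.53 in the controls and 1.19 in the mutant libraries, an interaction of -2.72 (adjusted p = 4.78e-07). For H2afz the values were 1.93 and 4.22, an interaction of -2.28 (adjusted p = 1.83e-06), and for H2afv 0.30 and 1.54, an interaction of -1.24 (adjusted p = 2.60e-05). In both H2A.Z genes the libraries labelled H2A.Z DKO stood above their controls. Counts per gene cannot show whether these transcripts are whole.

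Among genes with large line differences, Hormad1 differed more in the mutant libraries (7.72 against 5.95, interaction -1.77) and so did Fhit (2.51 in the controls, interaction -1.29). Cldn34d differed by 2.20 in the controls and -0.05 in the mutant libraries, an interaction of 2.25. Malat1 differed by 2.75 and 0.78, an interaction of 1.97, and Alyref2 by 2.99 and 1.46, an interaction of 1.52. Smaller interactions were found for ND1 (-0.65), Rpl5 (-0.65), Rps29 (-0.47) and Sap18b (-0.65), each with the same sign of line difference in both comparisons.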

How the results depend on the processing

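Without any 1 library, 1840 to 3823 genes were higher and 3191 to 4839 lower in the H2A.Z controls. The higher count was 3640 with RLE factors, 2610 scaled by library size alone and 3247 with DESeq2 1.42.0, and the lower count 4009, 4573 and 3780. The median of all genes was 0.0737 with RLE factors and -0.0533 by library size, against 0.0203. With the replicate number as a block among the 4 controls, 3821 genes were higher and 4597 lower, against 3997 and 4711 without the block, and the block ended the calls for H1foo and Malat1. The correlation of replicate differences between the control groups (-0.00894) cannot show whether equal replicate numbers were paired.

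With offsets for length and GC content the values turned to -0.0833 for Gm813, -0.25 for E330034G19Rik, -0.32 for Btg4, -0.77 for Oosp3, -0.38 for Omt2b, -0.14 for Mphosph6, -0.55 for Oosp1, -0.22 for E330021D16Rik, -0.33 for Oosp2 and -0.10 for H2afv. Differences that did not pass the test also changed sign: Bcl2l10 was 0.0148 with RLE factors and 0.00927 with DESeq2 and ran from -0.114 to 0.0188 without 1 library, Zp3 from -0.0845 to 0.333 and Gdf9 from -0.139 to 0.0084. Scaling by library size ended the calls for H1foo, Tcl1, Btg4 and H2afv, and RLE factors and DESeq2 that for Zp1. Among genes of the runs, DESeq2 ended the calls for Gm10778, Zfp781, Fuk and St3gal2, RLE factors that for Fuk, and no filter that for Zfp781. The cause was not tested.

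Per median transcript length the 10, 100 and 1000 highest genes held 6.94%, 25.4% and 65.2%, and by CPM 5.38%, 23.4% and 58.7%, against 9.64%, 31.4% and 70.2% per longest transcript; 19 of the 25 highest genes were shared in both cases. With 2 libraries a group, the line, animals and batch cannot be told apart.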
